A study of Mus musculus with 2 samples.

Results

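A set of 9 genes was followed that encode BET proteins and the coactivators found with them at highly active enhancers. They are Brd2 and Brd3 of the BET family, the acetyltransferases Ep300, Crebbp, Kat2a and Kat2b, the p160 coactivator Ncoa2, the Mediator subunit Med1 and the elongation kinase Cdk9. They were chosen by name, with earlier results of these data known. A probe set counted for a gene if the platform annotation gave it that symbol alone. On this basis 8 of the 9 genes had a value, through 22 probe sets of the 28898 with a single symbol, out of 17097 genes with a value in all. Ep300 is not listed in the annotation used, so its expression is not analysed here.

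The arrays measured CD4+ T cells from 6-week-old C57/Bl6 mice with a Foxp3-eGFP reporter, which marks regulatory T cells by green fluorescence. Naive cells (CD62L high, CD44 low, Foxp3-negative) received soluble anti-CD3 antibody for 48 hours beside antigen-presenting cells (APC), and live CD4+ cells were sorted again before RNA was taken. The APC were CD3- splenocytes treated with mitomycin C at 50 µg/ml, from wild type B6 mice (Wt APC) or from mice carrying an OX40 ligand transgene (OX40L-Tg APC). OX40 is a receptor through which activated T cells take up costimulation. The promoter behind the transgene, and whether animals were pooled, were not stated in the labels. There was 1 array for each kind of APC, so no value has a replicate error and no difference could be tested. Values are units of probe set intensity, Wt APC first. A difference is the log2 value with OX40L-Tg APC less that with Wt APC.

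Acetyl groups on histone tails are written by acetyltransferases such as CBP, GCN5 and PCAF and are read by bromodomains, of which each BET protein carries a pair. BET proteins help bring Mediator and the kinase CDK9 to promoters and enhancers, and CDK9 releases paused RNA polymerase II into elongation. Stretches of clustered enhancers with unusually dense Mediator and BET binding are called super-enhancers, and in T cells they lie near many cytokine and lineage genes.

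Both arrays had medians of 14.7 units, and their log2 values correlated with r = 0.993 over 45141 probe sets. A gene or probe set was above the floor if it reached the array median on at least 1 array, which 10541 genes did. Of these genes, 5687 were higher with OX40L-Tg APC and 4851 lower. The background level, the 95th percentile of 40 genes restricted to other organs, was 43.2 and 44.9 units. The T cell label fitted the markers, with Cd3e at 1452 and 912 units and Cd4 at 1410 and 1143 units. T cell markers were lower with OX40L-Tg APC in 11 of 12 genes, with a median difference of -0.25 and summed levels of 27852 and 23836 units. B cell markers above the floor were higher in 8 of 8 genes, with a median of 0.35 and summed levels of 1002 and 1392 units. Of the 8, Ebf1 and Vpreb3 were below background on both arrays, and Ebf1 had the largest difference, 0.99. MHC class II genes above the floor were higher in 8 of 9, with a median of 0.41 and summed levels of 3025 and 4025 units. Macrophage markers summed to 159.8 and 172 units and dendritic cell markers to 106 and 116 units, with 1 gene of each list above background on any array, and NK cell and granulocyte markers had 0. Erythroid markers summed to 1189.8 and 232 units, mostly through the globin gene Hba-a1 at 1161 and 207 units, a difference of -2.49. The CD8 genes Cd8a and Cd8b1 summed to 219 and 270.2 units, with Cd8a below background on both arrays. Lyz2 and Itgax were below background on both arrays. The part of these shifts in the differences below was not tested. The labels' extraction text names adipose tissue, but Adipoq read 8.89 and 8.31 units, below background. Tnfrsf4, which encodes OX40, read 5650.0 and 6262 units, and Tnfsf4, which encodes its ligand, 153.8 and 128 units, a difference of -0.26.

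The BET genes, Med1 and Cdk9 read nearly the same on both arrays. Crebbp, Kat2a, Kat2b and the p160 coactivator Ncoa2 read lower with OX40L-Tg APC. Outside the members, 4 other acetyltransferases were above the floor, 2 higher and 2 lower, with a median of 0.01. No gene of the 8 passed 1.5-fold, against 7.21% of the genes above the floor, and none passed 2-fold, against 2.72%. Brd2, Brd3, Med1 and Cdk9 differed by 0.01 to 0.09, whereas Crebbp, Kat2a, Kat2b and Ncoa2 differed by -0.47 to -0.17. This split was noticed after the values were seen. Brd3 changes sign to -0.01 and -0.02 when the median difference of all genes or a lowess curve is removed. The median over the 8 genes was -0.08, beside 0.02 over all genes above the floor. In these bulk samples fewer cells of a type and less RNA per cell cannot be told apart.

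**Figure D1:**
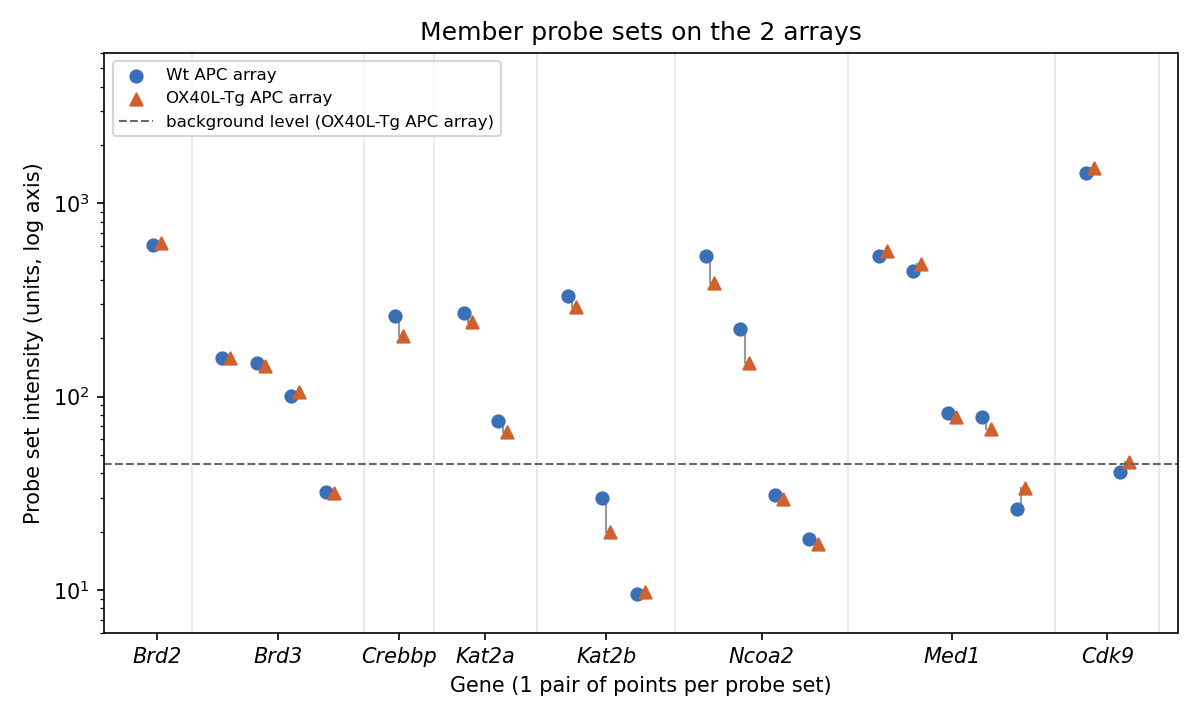
Intensity in units (log axis) of each of the 22 member probe sets on the Wt APC array (circles) and the OX40L-Tg APC array (triangles), 1 array each with no error bars; the dashed line is the background level of the OX40L-Tg APC array. The pairs of Brd2 and of the brighter Cdk9 and Brd3 probe sets lie almost level, and the 2 brighter Ncoa2 pairs step down to 385 and 149.5 units.

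Of the 22 probe sets, 21 were above the floor and 15 were above background on both arrays. Among the 21, 2 were lower by 1.5-fold or more and 0 higher by that much, against 3.24% and 3.45% of the 16981 named probe sets above the floor. The 2 were 1 probe set of Ncoa2 and 1 of Kat2b, and the Kat2b probe set was below background on both arrays. Probe sets of a gene are read on the same pair of arrays and are not replicates of a condition. Their disagreement gives the only view of technical scatter here. Over 2785 genes with at least 2 probe sets above background, the SD of the differences between probe sets of a gene had a median of 0.07 and a 90th percentile of 0.18. The largest such SD among the members was 0.15, for Med1.

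Brd2, a BET protein that binds acetylated histone H4 at active promoters, has 1 probe set. It read 606 and 619.9 units, a difference of 0.03, and 86.1% of genes above the floor differed by at least as much. Brd3, the BET protein known to bind acetylated GATA1 in erythroid cells, has 4 probe sets. Its brightest read 158 and 159 units, a difference of 0.01. The others above background read 148 and 143 units, and 100.1 and 106 units, so the 3 lay between -0.05 and 0.08 with no shared sign. The fourth probe set was below background, at 31.9 and 31.8 units. Brdt, the BET gene of the testis, was below background in both of its probe sets, at 25.5 and 15.3 units in the brighter one.

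Crebbp encodes CBP, the acetyltransferase that, with its close relative p300, marks active enhancers at lysine 27 of histone H3. Its single probe set read 260.4 and 207 units, a difference of -0.33 or 1.26-fold lower. Of the genes above the floor, 19.2% differed by at least as much in either direction, and 9.03% as far down or further. With 1 probe set no second reading of Crebbp stands beside it.

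Kat2a encodes GCN5, the acetyltransferase of the SAGA and ATAC complexes. Its 2 probe sets read 272 and 242 units, and 74.5 and 65.4 units. Both were lower with OX40L-Tg APC, by close differences of -0.17 and -0.19. Of genes above the floor, 42.9% differed by at least as much as the brighter one in either direction. Kat2b encodes PCAF, which takes the same place as GCN5 in these complexes. Its brightest probe set read 331 and 292 units, a difference of -0.18. That is 1.13-fold lower, and 40.3% of genes above the floor differed by at least as much in either direction. Its other probe sets were below background, at 29.9 and 19.9 units and at 9.50 and 9.74 units. The brighter probe sets of Kat2a and Kat2b are both marked as matching several transcripts.

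Ncoa2, also known as GRIP1 or TIF2, is a p160 coactivator that docks on nuclear receptors and brings CBP and p300 to them. It had the largest difference of the 8 genes. Its brightest probe set read 535 and 385 units, a difference of -0.47 or 1.39-fold lower. Its second read 225 and 149.5 units, a difference of -0.59, just past 1.5-fold. These 2 probe sets therefore gave the same direction and differed by 0.11 from each other. Of the genes above the floor, 10.5% differed by at least as much as its brightest probe set in either direction. Those as far down or further were 529 or 5.02%. The remaining probe sets of Ncoa2 were below background on both arrays, at 31.0 and 29.5 units and at 18.3 and 17.3 units.

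The other p160 coactivators did not share the direction of Ncoa2. Ncoa1, known as SRC-1, read 113 and 119 units and, in its second probe set, 82.5 and 99.1 units. Its differences were 0.08 and 0.27. Ncoa3, known as SRC-3, read 341 and 365 units and 282 and 314 units, with differences of 0.10 and 0.16. All 4 probe sets of these genes were higher with OX40L-Tg APC, and both Ncoa2 probe sets above background were lower.

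Med1, the Mediator subunit that contacts nuclear receptors and is often used to map super-enhancers, has 5 probe sets. The brightest pair read 536 and 566 units and 447 and 485 units, differences of 0.08 and 0.12. Dimmer ones read 81.8 and 78.2 units and 78.4 and 67.6 units, differences of -0.06 and -0.21, and the last of these is marked as open to cross-hybridisation. The fifth was below background at 26.3 and 33.8 units. The direction of Med1 thus depended on the probe set.

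Cdk9, the catalytic subunit of the elongation factor P-TEFb, read 1434 and 1527 units. The difference was 0.09, or 1.06-fold higher. Its second probe set read 40.7 and 45.9 units, above background on the OX40L-Tg APC array only. Ccnt1 and Ccnt2, which encode its cyclin partners, read 264 and 316 units and 171 and 185 units. Their differences of 0.26 and 0.12 had the same sign as that of Cdk9. Hexim1, the inhibitor that holds P-TEFb inactive, read 368 and 362 units, a difference of -0.03.

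**Figure D2:**
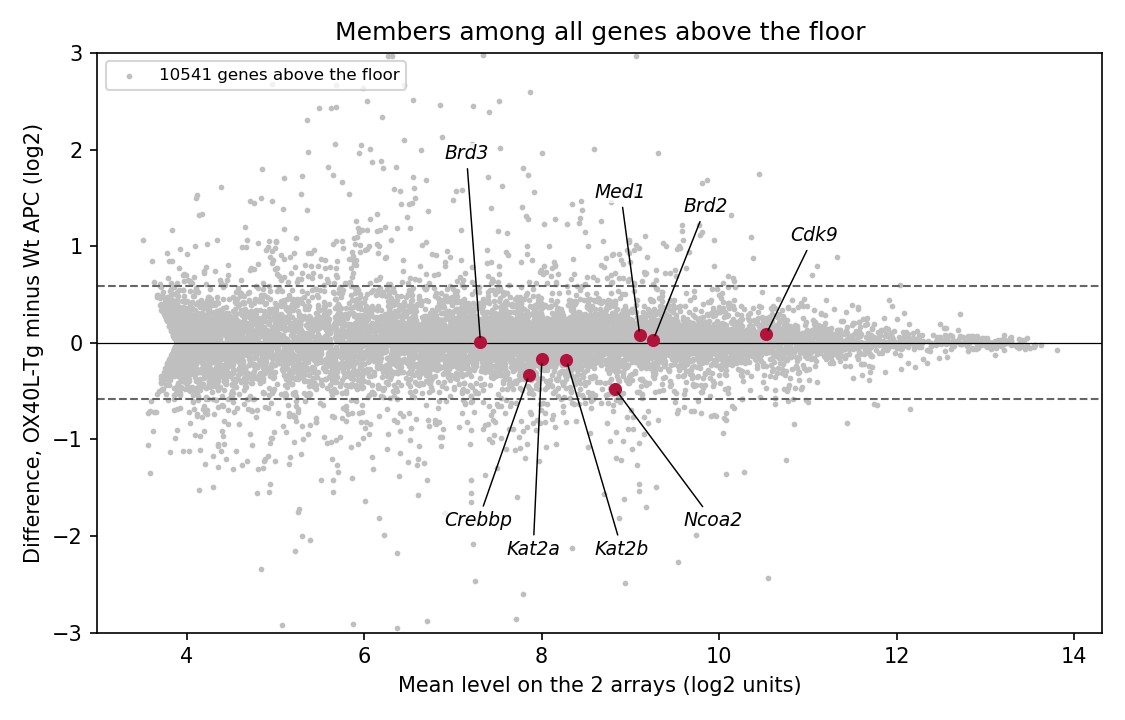
Difference between the arrays (OX40L-Tg APC minus Wt APC, log2) against the mean log2 level for 10541 genes above the floor (grey) and the 8 members with a value (red); dashed lines mark 1.5-fold, and 11 genes beyond the axis limits of 3 are not drawn. All 8 red points lie inside the dashed lines, with Ncoa2 lowest at -0.47.

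The other genes of the complexes were read in the same way. Apart from the members, the coactivator lists hold 117 genes, of which 100 were above the floor. Of these, 1 was higher by 1.5-fold or more and 3 lower by that much, against 3.85% and 3.36% of all genes above the floor. Their median difference was 0.03. In direction alone 55 were higher and 45 lower, beside 5687 higher and 4851 lower of all 10541 genes above the floor. The 3 genes lower by 1.5-fold or more were Supt3, Eaf2 and Brdt. Of these Supt3 was above background on both arrays, Eaf2 was below it with OX40L-Tg APC, and Brdt was below it on both.

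Of the 31 genes of Mediator and its kinase module above the floor, Med1 included, 0 passed 1.5-fold. In direction 15 were higher and 16 lower, with a median of -0.03. Med13l, of the kinase module, read 223 and 286 units and Med14, the backbone subunit, 505 and 411 units. Their differences were 0.36 and -0.30, and the probe sets above the floor ranged from 0.36 to 0.60, past 1.5-fold, for Med13l and from -0.36 to -0.30 for Med14. Med8 differed by 0.39 with both values below background. Cdk8, a kinase of the module, read 681 and 798 units, a difference of 0.23. Its paralogue Cdk19 went the other way, at 211 and 175 units, a difference of -0.27. The probe sets of Cdk19 above the floor ranged from -0.32 to -0.27. Ccnc, the cyclin of the module, differed by 0.13 with a range over probe sets from -0.14 to 0.16.

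Among the complexes of GCN5 and PCAF, 25 genes were above the floor, with a median of 0.07. Of these 16 were higher and 9 lower, and Kat2a and Kat2b were among the lower ones. Supt3, a core subunit of SAGA, read 200.2 and 131 units, a difference of -0.61, and was the only one past 1.5-fold. Taf9b, a TAF9 paralogue, and Yeats2, an acetyl-lysine reader of ATAC, differed by 0.27 and 0.24.

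Among factors of elongation and pausing, Ell2, of the super elongation complex, read 60.6 and 139 units, 2.29-fold higher. Eaf2, which binds ELL proteins, read 57.4 and 29.8 units, the second below background. The first value of Eaf2 was 1.28-fold the background level of the OX40L-Tg APC array. Ell2 and Eaf2 each rest on 1 probe set. Both genes are also active in B lineage cells. B cell markers were higher by a median of 0.35 on the same arrays, the direction of Ell2 and the opposite of that of Eaf2. The part of B cells in these values was not tested. Aff4, the scaffold of the super elongation complex, read 374 and 479 units, a difference of 0.36, with its probe sets above the floor between 0.31 and 0.36. The 18 genes of this list above the floor, Cdk9 included, had a median of 0.09, with 11 higher and 7 lower. Of all 10541 genes above the floor, 5687 were higher and 4851 lower.

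Other acetyltransferases and other bromodomain proteins gave no gene past 1.5-fold among 4 and 23 above the floor. Kat6a, an acetyltransferase of histone H3, differed by -0.11, and Kat8 and Hat1, which act on histone H4, by 0.05 each. Brpf3, a scaffold of acetyltransferase complexes, read 59.8 and 43.0 units, the second just below background. Its first value was 1.33-fold the background level of the OX40L-Tg APC array. Smarca2, the BRM ATPase, differed by -0.31 and Baz2b, a bromodomain protein of chromatin remodelling, by 0.29, with probe sets up to 0.78. The medians of the lists were 0.01 and -0.01.

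**Figure D3:**
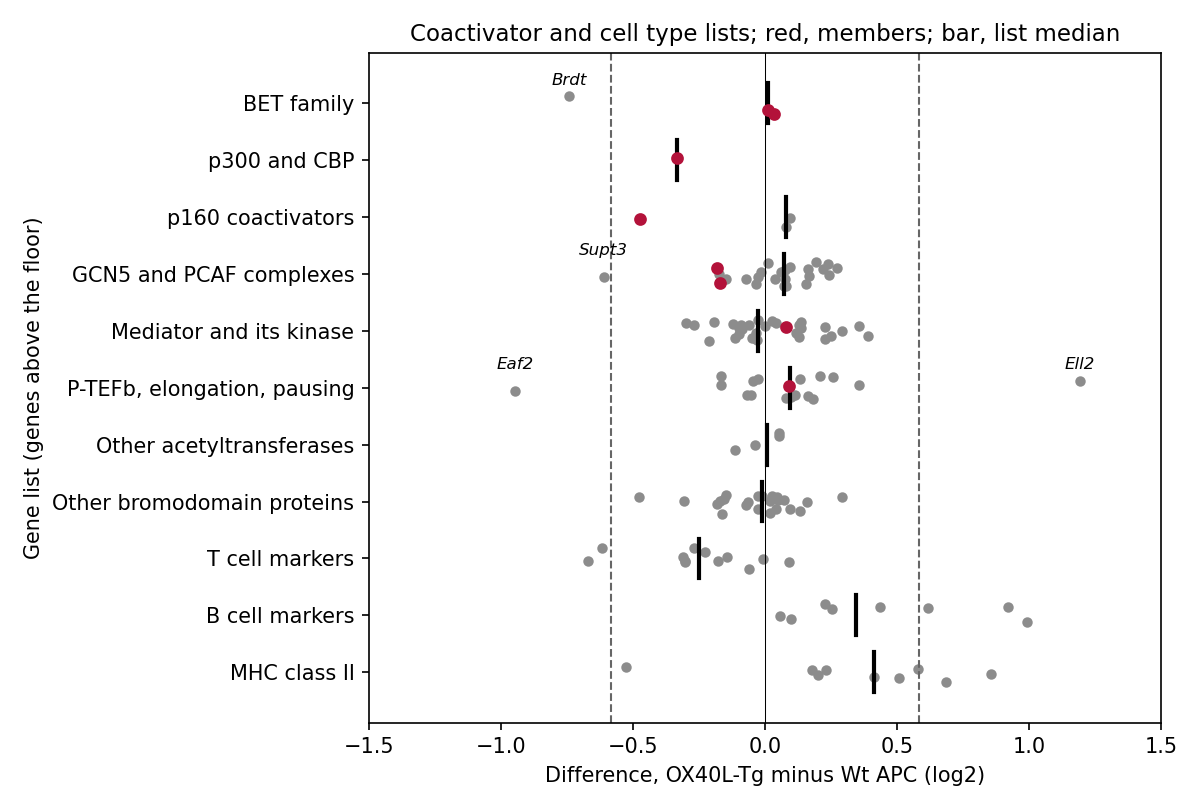
Difference between the arrays (OX40L-Tg APC minus Wt APC, log2) of each gene above the floor in 8 coactivator lists and 3 cell type lists; red points are members, grey points other genes, black bars list medians, and dashed lines mark 1.5-fold. Coactivator medians from lists of 4 or more genes lie between -0.03 and 0.09, the T cell markers at -0.25 and the MHC class II genes at 0.41.

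The promoters of the members were compared for base composition, because promoters rich in CG pairs are typical of broadly expressed genes. RefSeq promoter windows on GRCm38.p6 were listed for 8 of the 9 members, Ep300 included and Ncoa2 not, in 11 windows, and the 250 bases before each start were read. CG pairs numbered 5 to 44 in these windows, beside a median of 6 over all 32851 windows. The window of Crebbp held 44, a count reached by 0.54% of windows, and the 2 windows of Kat2b held 6 and 5. The sequences of Cdk9 and Kat2a are shown because they differ in CG pairs, with 32 and 11 in their windows. The 18 bases of the Kat2a window that overlap its own gene were left out of the print, and the Cdk9 window overlaps the microRNA genes Mir2861 and Mir3960. Capitals mark CG pairs, 32 in the 250 bases of Cdk9 at chr2:32712785-32713034 and 8 in the 232 bases of Kat2a at chr11:100712486-100712717, both on the minus strand.
Cdk9: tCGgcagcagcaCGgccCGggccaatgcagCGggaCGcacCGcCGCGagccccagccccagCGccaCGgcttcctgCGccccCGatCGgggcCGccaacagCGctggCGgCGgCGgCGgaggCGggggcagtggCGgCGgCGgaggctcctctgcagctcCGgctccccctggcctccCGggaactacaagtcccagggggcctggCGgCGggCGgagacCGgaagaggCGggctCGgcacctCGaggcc
Kat2a: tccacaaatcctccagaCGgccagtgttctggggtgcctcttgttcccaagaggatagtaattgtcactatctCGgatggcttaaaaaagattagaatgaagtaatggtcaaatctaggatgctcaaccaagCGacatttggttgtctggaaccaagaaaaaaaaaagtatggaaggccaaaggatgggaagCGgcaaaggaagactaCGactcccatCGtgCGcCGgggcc
GC content was 78.8% in the Cdk9 sequence and 47.4% in that of Kat2a. The GC box GGGCGG, read on both strands, was in 6 of the 11 windows and in 32.7% of all windows. The AP-1 motif TGANTCA was in 1 of the 11, a Kat2b window, and in 6.75% of all windows. The NF-kB consensus was in 0 of the 11 and in 3.90% of all. The ETS motif CCGGAAG was in 2 of the 11 and 6.91% of all, and TATAAA in 0 and 12.4%. A match describes these letters only, and the arrays carry no measure of binding.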

How the data were processed

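RNA of CD4+ T cells was hybridised by the authors to Affymetrix HT MG-430 PM arrays, 1 per condition. Per the submitters' processing notes, RMA was used. The intensities deposited by the authors are linear, 1 per probe set, from 4.69 to 14686 units. Its version and the arrays normalized together are not given in the sources used here. RMA equalises arrays, so a change in total RNA leaves no trace, and it compresses low intensities.

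Here log2 was taken without a pseudocount. Of 45141 probe sets, 28898 had 1 symbol, 551 several and 15692 none listed. Symbols were checked by Entrez number against RefSeq (GRCm38.p6), which matched 28689 and changed 0. A gene was represented by whichever of its probe sets had the highest mean. The floor was each array's median. The number of arrays limits the precision, and no test was run. The planned comparison of protein sequences was not done, and proteins are not analysed here.

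The text names every member, the paralogues, partner genes listed by name, and the 3 genes of each larger list with the largest difference among those above the floor whose probe sets there share a sign. Where 1 value was below background, the fold given sets the value above background against the other array's background level. It is not a limit on the true fold. Members and lists were chosen with earlier results of these data known. Supt3, Eaf2 and Brdt are also named as the genes of a count, and Cdk19 beside its paralogue Cdk8. Alternatives changed the probe set summary, the normalization, the pseudocount and the floor. Scripts used Python 3.11.15, numpy 2.4.6, pandas 2.3.3, statsmodels 0.14.6 and matplotlib 3.10.9 and were tested on simulated data.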

Additional observations from a re-analysis of the deposited data

How the results depend on the processing

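With 1 array per condition no replicate could be left out. No paired analysis was possible because each condition has 1 array. The signs of Crebbp, Kat2a, Kat2b, Ncoa2, Brd2, Med1 and Cdk9 held under the 6 alternatives of probe set summary, normalization and pseudocount. Brd3 ranged from -0.02 to 0.01. Crebbp and Brd2 have 1 probe set each, so a change of summary could not move them. All probe sets of Kat2a and Ncoa2 were lower and those of Cdk9 higher, so no summary could change these signs either. The median difference removed was 0.02, smaller in size than every member difference except that of Brd3. Its removal could therefore change only the sign of Brd3. A pseudocount cannot change the sign of a probe set's difference. Med1 kept its sign as a summary although its probe sets differ in sign. Using probe sets not marked as shared put 1 member past 1.5-fold, Kat2b, at -0.59 from a probe set below background, and moved Kat2a to -0.19. Ncoa2 was -0.31 as the mean of all its probe sets and -0.28 as the median of those above the floor, both of which include probe sets below background. The latter gave -0.38 for Kat2b. Kat2a was -0.19 after removing a lowess curve or the median difference. The median of the Mediator list was 0.00 under the mean and the median of probe sets. Those of the other acetyltransferases and other bromodomain proteins ranged from -0.04 to 0.01 and from -0.03 to 0.02. A pseudocount of 16 units left 0 genes of the GCN5 and PCAF complexes past 1.5-fold. Probe sets not marked as shared gave 2, which are Supt3 and the same reading of Kat2b from below background. With the floor at the 75th percentile, 1 elongation gene passed. Without a floor, 4.54% of all genes passed 1.5-fold.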

Other observations

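The genes next to the members on the chromosomes were read as well. The 32 nearest genes with a value were the nearest 2 on each side of each member. Of these, 16 were above background on both arrays and 1 of the 16 passed 1.5-fold. Of 11663 named probe sets above background on both arrays, 329 were higher and 294 lower by that much. Over all genes above the lower floor the share was 7.21%. Rxra, near Brd3, read 39.2 and 67.2 units, a difference of 0.78, and was left out because its first value was below background. The 1 gene that passed is H2-DMb2, a subunit of the peptide-loading factor for MHC class II, which lies beside Brd2. Brd2 stands inside the class II region of the MHC. Its nearest neighbours H2-Oa and H2-DMa, which take part in the same loading step, read 179.7 and 206 units and 523 and 591 units, differences of 0.20 and 0.18. H2-DMb2 read 102 and 184 units, a difference of 0.86 from a probe set marked as matching several transcripts, whereas Brd2 differed by 0.03. The neighbour of Kat2a with the largest difference was Dhx58, an antiviral helicase, at 99.2 and 73.0 units and a difference of -0.44. Tram1, next to Ncoa2, read 1804 and 1739 units, a difference of -0.05. Rab5a, a GTPase of early endosomes next to Kat2b, read 600.0 and 788 units, a difference of 0.39.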
